A study of Mus musculus with 10 samples.

Results

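The miR-29 family of mouse microRNAs was followed over both arms of its 4 hairpins. The members were taken by name: every array entry called miR-29a, miR-29b, miR-29b-1, miR-29b-2 or miR-29c with the ending -3p or -5p. This gave 7 of the 1892 miRNAs on the array, each with 2 spots: the guides mmu-miR-29a-3p, mmu-miR-29b-3p and mmu-miR-29c-3p and the passengers mmu-miR-29a-5p, mmu-miR-29b-1-5p, mmu-miR-29b-2-5p and mmu-miR-29c-5p, written without the prefix mmu- from here on. Levels were measured on 10 one-colour Cy3 microarrays, of which 5 carry the title T-C cell and 5 the title control cell. Both groups are labelled as RNA of male mice, sle liver, from a liver cell culture with Trizol extraction. T-C cell samples carry the source Col-/- and control cell samples the source Control Col. The labels give 0.5 mg of TN-CF to 100000 T-C cells in a dish over 24 hours, with a control, while the design text writes TB-CF. The labels do not expand T-C, Col, TN-CF or sle, and genotype, source and treatment cannot be told apart here. The labels leave unsaid whether the 5 arrays of a group stand for different animals or cultures, so the spread behind each p-value is that of these arrays and may be technical only.

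A microRNA hairpin is cut by Drosha and Dicer into a short duplex. One strand of it, the guide, is loaded into an Argonaute protein and pairs through its seed with messenger RNAs, mostly in their 3′ untranslated regions. The other strand, the passenger, is usually degraded. Members of the miR-29 family are best known for lowering collagens, elastin, fibrillin and other extracellular matrix genes, and for lowering the DNA methyltransferases Dnmt3a and Dnmt3b. In liver the family is known from work on fibrosis and on stellate cells, the main collagen-producing cells of fibrotic liver.

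The guides are shown because the results turn on how alike they are. They are the 3p arms, written 5′ to 3′ with the seed (bases 2 to 8) in capitals.
miR-29a-3p: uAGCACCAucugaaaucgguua
miR-29b-3p: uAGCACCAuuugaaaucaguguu
miR-29c-3p: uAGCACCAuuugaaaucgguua
All 3 guides have the seed AGCACCA, and no other miRNA on the array has it at bases 2 to 8. Counted from the 5′ end, miR-29c-3p departs from miR-29a-3p at 1 base of 22, by C10U. miR-29b-3p differs from miR-29c-3p by 3 substitutions (G18A, U21G and A22U) over the same 22 positions and is 1 base longer. The passenger arms are the 5p strands, with the same bases in capitals.
miR-29a-5p: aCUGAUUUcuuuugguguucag
miR-29b-1-5p: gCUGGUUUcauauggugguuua
miR-29b-2-5p: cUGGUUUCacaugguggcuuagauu
miR-29c-5p: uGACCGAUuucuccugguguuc
The 4 passengers have 4 different seeds. Each passenger comes from 1 hairpin, while miR-29b-3p is the guide of both miR-29b hairpins.

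The hairpins lie in 2 clusters, and the RefSeq hairpins (build GRCm38.p6) are shown with both arms in capitals, the 5p passenger first.
Mir29a: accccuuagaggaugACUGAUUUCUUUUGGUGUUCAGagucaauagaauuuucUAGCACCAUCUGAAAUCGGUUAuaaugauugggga
Mir29b-1: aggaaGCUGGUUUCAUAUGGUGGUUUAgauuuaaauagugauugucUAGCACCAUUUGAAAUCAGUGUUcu
Mir29b-2: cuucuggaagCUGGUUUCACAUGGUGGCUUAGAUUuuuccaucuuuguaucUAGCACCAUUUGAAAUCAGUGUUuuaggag
Mir29c: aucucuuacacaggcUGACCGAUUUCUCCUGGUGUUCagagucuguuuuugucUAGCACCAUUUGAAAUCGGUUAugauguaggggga
Mir29a (chr6:31062660-31062747) and Mir29b-1 (chr6:31063023-31063093) are on the minus strand of chromosome 6 with 275 bases between them. Mir29b-2 (chr1:195037040-195037120) and Mir29c (chr1:195037547-195037634) are on the plus strand of chromosome 1 with 426 bases between them. In GENCODE M21, Mir29a overlaps no other gene and Mir29b-1 lies in an exon of the long non-coding RNA Gm27019. The pair on chromosome 1 is exonic in the non-coding A330023F24Rik and, on the opposite strand, in Cd46. The 7 mature sequences on the array were identical to those of RefSeq.

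A messenger RNA pairs with the family seed through TGGTGCT, written as DNA and searched on the sense strand of the longest annotated 3′ UTR of each gene. This match was present in 12.7% of 21685 genes with a 3′ UTR and in 7 of 8 textbook targets looked up, Col1a2 being the one without it. A window at the first such match is shown for 3 of them, with the match in capitals, since a site of this kind is read by all 3 guides.
Col1a1: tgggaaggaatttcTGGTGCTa
Col3a1: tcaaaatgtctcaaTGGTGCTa
Dnmt3b: agagtagcccggcaTGGTGCTc
These windows of 22 bases are at chr11:94952524-94952545, chr1:45348968-45348989 and chr2:153686613-153686634 (GRCm38, plus strand). Col1a1 and Col3a1 encode fibrillar collagens, and Dnmt3b encodes a DNA methyltransferase. A match describes letters only. No messenger RNA was measured on these arrays.

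miR-29a-3p, the guide of Mir29a, fell in T-C cell samples, while its near twin miR-29c-3p did not pass the test. The raw spot brightness of miR-29a-3p, in scanner units, was 199, 254, 190, 445 and 233 in T-C cell replicates 1 to 5. It was 7504, 5206, 6712, 5661 and 6201 in control cell replicates 1 to 5. Every control cell array was more than 10 times as bright as every T-C cell array, and the groups did not overlap, as was the case for 18 (3.78%) of the 476 miRNAs tested. The detection limit of an array was 3 SD above the mean of its blank spots, and by this limit miR-29a-3p was seen on 5 of 5 control cell and 4 of 5 T-C cell arrays. On the remaining one, T-C cell replicate 3, it stood at 190 against a limit of 474. After normalization its log2 level was 8.18 ± 0.45 against 12.63 ± 0.15 (SD, n = 5 each), a difference of −4.45 (SE 0.21, 95% interval −4.91 to −3.99, limma adjusted p = 3.74e-08). It ranked first by size among all tested miRNAs, of which 30 (6.3%) were called lower and 37 (7.77%) were called in either direction. In bulk RNA, fewer cells of a type and less miRNA per cell cannot be told apart.

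Brightness above the local background leaves out the brightness of the array around a spot. The local background of a spot was taken as the 20th percentile of the miRNA spots within 5 rows and 5 columns. Above it, miR-29a-3p had 128, 145, 34.9, 354 and 79.4 units in T-C cell replicates 1 to 5, and between 5043 and 7411 units in control cell samples. The group means were 148 ± 123 and 6133 ± 911 (SD over 5 arrays each), a ratio of 41.4 of control cell to T-C cell. Without T-C cell replicate 4, the brightest of its group, the ratio was 63.3, and without replicate 3, where the miRNA was not detected, it was 34.7. The log2 difference of −4.45 is on the scale of log2(brightness + 50), which understates the change of a miRNA this close to background. With the local background removed and 50 still added, a choice made after seeing the data, it was −5.23. With 200 in place of 50 and no background removed it was −3.84. Both spots of miR-29a-3p gave the same picture, with 256 and 272 units on average in T-C cell samples and 6022 and 6492 in control cell samples.

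miR-29b-3p, the guide made from both miR-29b hairpins, was lower on average but did not pass. Its raw brightness was 158, 258, 274, 631 and 263 in T-C cell replicates 1 to 5 and 541, 481, 509, 643 and 523 in control cell replicates 1 to 5. It was detected on all arrays but T-C cell replicate 3. T-C cell replicate 4 lay among the control cell arrays, and the other 4 T-C cell arrays lay below all of them. The log2 level was 8.36 ± 0.69 against 9.24 ± 0.21 (SD, n = 5 each), a difference of −0.88 (SE 0.29, 95% interval −1.51 to −0.25, limma adjusted p = 0.0932). The exact two-sided permutation test of the single value gave p = 0.0317, without adjustment over other miRNAs. T-C cell replicate 1 had the lowest level, and without it the difference was −0.59 (limma adjusted p = 0.112).

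miR-29c-3p, the guide of Mir29c, overlapped between the groups and did not pass. Its raw brightness was 1079, 2363, 1190, 4113 and 1067 in T-C cell replicates 1 to 5 and 1686, 1236, 1411, 1716 and 1155 in control cell replicates 1 to 5. T-C cell replicates 2 and 4 were the brightest of the 10 arrays. T-C cell replicates 1 and 5 were dimmer than every control cell array, and T-C cell replicate 3 was dimmer than all of them but control cell replicate 5. The log2 level was 10.68 ± 0.83 against 10.49 ± 0.30 (SD, n = 5 each), a difference of 0.19 (SE 0.34, 95% interval −0.56 to 0.94, limma adjusted p = 0.835). The interval covers both a decrease and an increase of this miRNA, so equal levels were not shown. It lies wholly above the interval of miR-29a-3p.

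On control cell replicate 5 the 2 spots of these latter guides disagreed. The first spot of miR-29b-3p was 0.228 times and that of miR-29c-3p 0.340 times as bright as the second, while on the other 9 arrays the first spot was 1.16 to 2.24 and 1.21 to 1.59 times as bright. On that array 8 tested miRNAs had a first spot over 2-fold dimmer than the second, and for all 8 the first spot was in rows 1 to 8. With the second spots alone the differences were −1.08 for miR-29b-3p (limma adjusted p = 0.0635) and 0.02 for miR-29c-3p (limma adjusted p = 0.996). Both spots of miR-29a-3p are outside those rows.

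**Figure D1:**
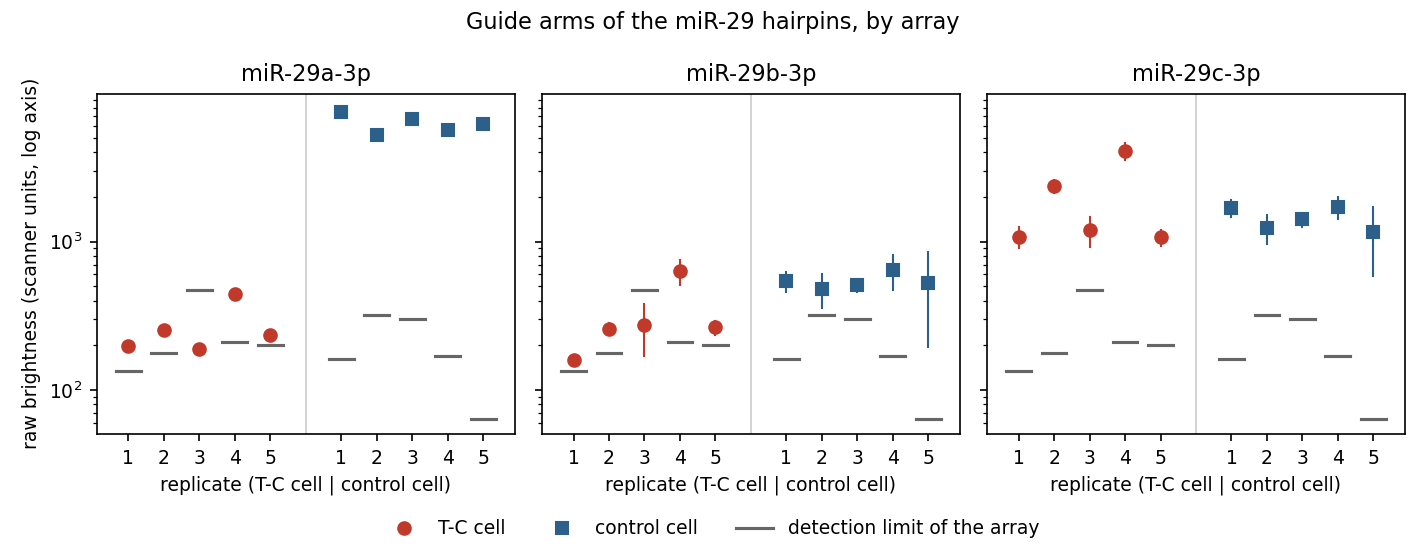
Raw brightness of the 3 guide arms on each array, in scanner units on a log axis; points are means of 2 spots, vertical lines join the 2 spots, and grey bars mark each array's detection limit. miR-29a-3p sits between 190 and 445 in T-C cell samples and between 5206 and 7504 in control cell samples, while the groups overlap for miR-29b-3p and miR-29c-3p.

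The order of the guides by brightness differed between the groups. Probes can differ in how brightly they report, so shares of summed brightness are not shares of molecules, but the same 3 probes are compared on every array. Above local background, miR-29a-3p made 78.2% ± 3.23 of the summed brightness of the 3 guides in control cell samples and 6.81% ± 2.54 in T-C cell samples (SD over 5 arrays each). miR-29c-3p made 16.6% ± 2.49 in control cell samples and 85.8% ± 4.63 in T-C cell samples. miR-29b-3p made 5.16% ± 1.13 and 7.42% ± 2.56. In control cell samples the order was miR-29a-3p, miR-29c-3p, miR-29b-3p on every array. In T-C cell samples miR-29c-3p was the brightest on every array. miR-29b-3p was above miR-29a-3p on every T-C cell array but replicate 1 (96.2 against 128 units), and this order was not tested. The summed brightness of guides with the seed AGCACCA was 2150 ± 1633 in the T-C cell group and 7844 ± 1112 in the control cell group, 3.65 times as high in the latter, and no T-C cell array (1033 to 4850) reached the lowest control cell array (6343).

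The ratio of miR-29a-3p to miR-29c-3p brightness is taken within an array, so a scale factor of the array cancels. It ranged from 3.50 to 5.61 in control cell samples. On the 4 T-C cell arrays with miR-29a-3p detected it ranged from 0.0646 to 0.126, a signal of 6.46% to 12.6% of that at the miR-29c-3p spots. On T-C cell replicate 3, where miR-29a-3p was under the detection limit, the ratio was 0.0365. How much of this remainder comes from miR-29c-3p, which differs from miR-29a-3p by C10U, was not tested. How much of the signal at the miR-29b-3p and miR-29c-3p spots comes from miR-29a-3p was not tested either. The group differences of miR-29b-3p and miR-29c-3p and the shares of brightness carry this limit.

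The passenger arms were close to the array surface throughout. miR-29a-5p and miR-29c-5p were each detected on 1 of 10 arrays, control cell replicate 5, which had the lowest detection limit, and miR-29b-1-5p and miR-29b-2-5p on none. None entered the test across miRNAs, which required detection on 5 of 10 arrays, so 3 of the 7 members were tested and 1 of these was called. Over the whole array 476 of 1892 miRNAs were tested and 37 (7.77%) of these were called.

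miR-29a-5p, the partner of miR-29a-3p, had lower values in T-C cell samples by the local background measure, without passing after adjustment. Its brightness minus local background was −4.06, −0.16, 0.87, −0.99 and −4.00 units in T-C cell replicates 1 to 5. In control cell replicates 1 to 5 it was 17.0, 3.99, 13.3, 16.5 and 22.2 units. All T-C cell values lay around 0 and below every control cell value (p = 0.00794, exact two-sided permutation, the lowest value possible for 5 against 5). Adjusted over all 1892 miRNAs this p was 0.469, which did not pass. miR-29a-3p, also at the lowest possible p by this measure, had the same adjusted p, so no miRNA could pass here. The adjusted p therefore cannot decide whether miR-29a-5p changed. Of the 1416 miRNAs below the detection filter, 4 (0.282%) were lower without overlap of the groups by this measure and 7 (0.494%) were higher. The mean of 14.6 ± 6.74 units in control cell samples (SD, n = 5) was well under that of the guide, at 6133.

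Each spot of miR-29a-5p lies between a spot of miR-29a-3p, 1 row before it, and a spot of miR-29b-1-5p, 1 row after it. Those of miR-29a-3p read 256 and 272 units on average in T-C cell samples and 6022 and 6492 in control cell samples. Their part in the brightness of miR-29a-5p was not tested. The spots of miR-29b-1-5p give a comparison of neighbours, chosen after the values were seen. The log2 ratio of miR-29a-5p to miR-29b-1-5p was 0.01 ± 0.02 on T-C cell arrays and 0.18 ± 0.17 on control cell arrays (SD, n = 5 each, exact two-sided permutation p = 0.0476, adjusted over 2 ratios p = 0.0476), and the groups overlapped. Without control cell replicate 5, at 0.44, the group difference in this ratio was −0.10 in place of −0.17. The second ratio, of the second spot of miR-29b-2-5p to the nearby first spot of miR-29b-1-5p, was 0.18 ± 0.06 and 0.11 ± 0.04 (SD, n = 5 each, exact two-sided permutation p = 0.0476, adjusted p = 0.0476), a difference in the opposite direction. This second difference, 0.07, rests on 1 spot of each of a pair of passengers detected on no array. Over both spots and after normalization, that pair is compared again with the clusters.

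The other passengers overlapped between the groups. Minus local background, miR-29b-1-5p ran from −6.85 to 2.82 units in the T-C cell group and from 0.48 to 8.21 in the control cell group (exact two-sided permutation p = 0.0952). miR-29b-2-5p ran from 2.84 to 24.3 units in the T-C cell group and from −0.12 to 18.4 in the control cell group (exact two-sided permutation p = 0.730). miR-29c-5p ran from 10.9 to 50.8 and from 11.6 to 58.2 units (exact two-sided permutation p = 0.770). On the normalized log2 level, where all 4 passengers overlapped between the groups, the differences were −0.21 for miR-29a-5p and −0.07 for miR-29b-1-5p (p = 0.0238 for each, exact permutation test). For miR-29b-2-5p and miR-29c-5p they were −0.06 and −0.12 (p = 0.183 and p = 0.222, exact permutation test). So miR-29a-5p was not alone in differing on that scale, and none of these p-values is adjusted over miRNAs.

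**Figure D2:**
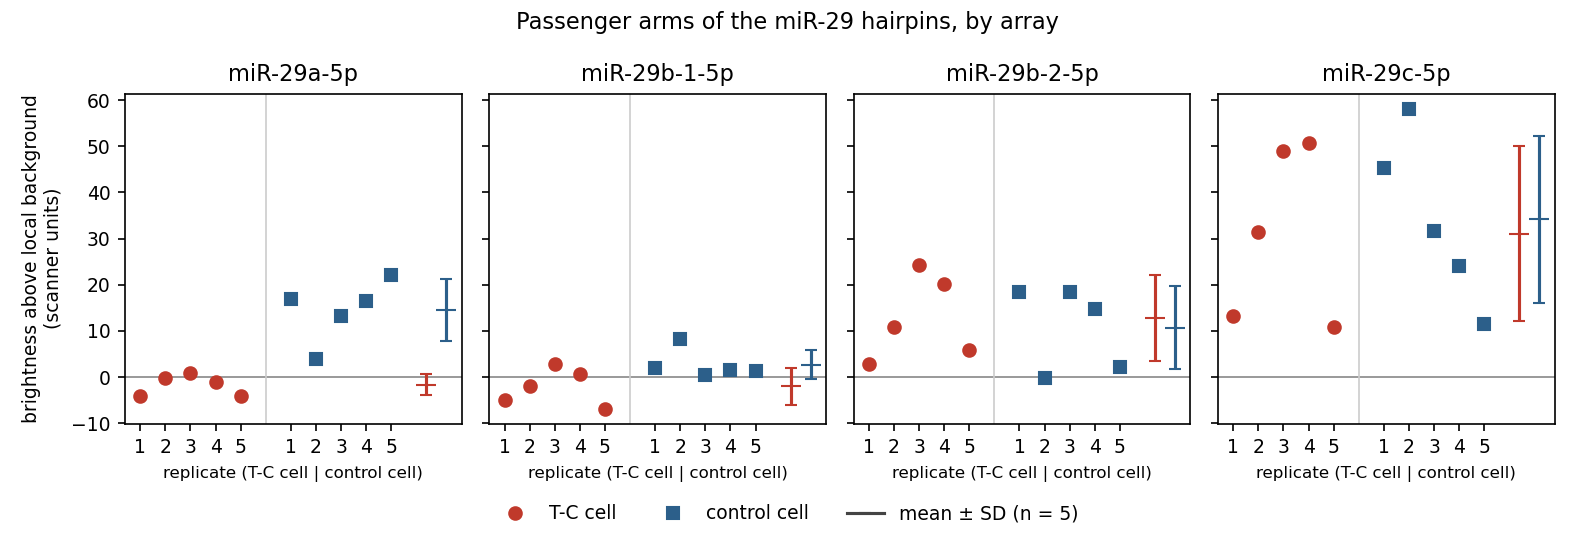
Brightness of the 4 passenger arms above local background on each array, in scanner units on a linear axis; the bars at the right of each panel are the mean ± SD of T-C cell and control cell samples (n = 5 each). miR-29a-5p lies between −4.06 and 0.87 in T-C cell samples and between 3.99 and 22.2 in control cell samples, and the other 3 overlap.

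Setting each guide against the passenger of its own hairpin asks whether the arms moved together. For Mir29a the guide exceeded the passenger by 5.11 ± 0.11 log2 units in control cell samples and by 0.87 ± 0.51 in T-C cell samples (SD over 5 arrays each). The control cell arrays lay between 4.97 and 5.26, and the T-C cell arrays between 0.01, in replicate 1, and 1.37, in replicate 4. The difference between the groups was −4.24 (SE 0.22, 95% interval −4.73 to −3.75, limma adjusted p = 2.20e-07). It ranked first by size among the 338 hairpin pairs with at least 1 arm detected on 5 of 10 arrays, out of 789 pairs on the array. Of these 338 pairs, 31 (9.17%) were called, 28 (8.28%) of them lower, and the median pair changed by −0.12. Since miR-29a-5p was near background in both groups, the arm difference follows the guide and cannot show how far the passenger changed with it.

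The other 3 hairpins did not pass. For Mir29b-1 the guide exceeded the passenger by −0.08, 1.25, 1.14, 1.88 and 1.02 log2 units in T-C cell replicates 1 to 5 and by 1.69 to 2.14 in control cell samples. The difference was −0.81 (SE 0.30, limma adjusted p = 0.114). For Mir29b-2, which has the same guide, it was −0.82 (SE 0.27, limma adjusted p = 0.0750), and the pair is not independent of that of Mir29b-1. For Mir29c the arm difference was 2.21 to 3.89 in the T-C cell group and 2.44 to 3.16 in the control cell group, with a group difference of 0.32 (SE 0.30, limma adjusted p = 0.599). Single T-C cell arrays moved these values: without replicate 1 they were −0.54 for Mir29b-1, −0.55 for Mir29b-2 and 0.53 for Mir29c, and for Mir29c the value was 0.18 without replicate 2 and 0.11 without replicate 4. Mir29b-2 passed with arrays weighted by quality (−0.64, limma adjusted p = 0.0450) and with local background subtracted (−1.25, limma adjusted p = 0.0380), the latter chosen after seeing the data.

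**Figure D3:**
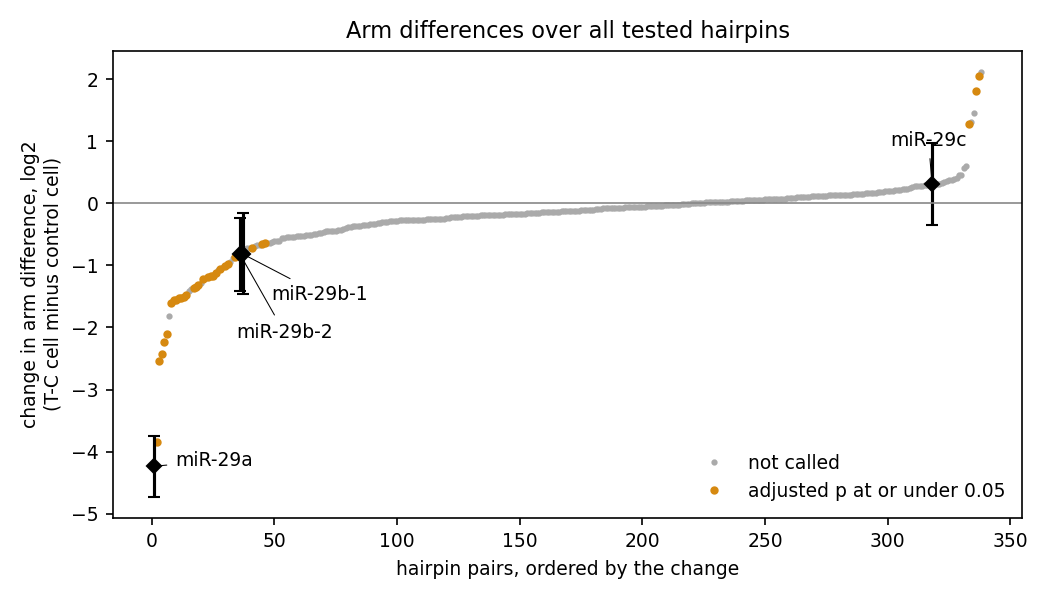
Change in the guide-minus-passenger (3p minus 5p) log2 difference between T-C cell and control cell samples for 338 hairpin pairs, ordered by the change; black diamonds are the miR-29 hairpins with 95% intervals. miR-29a is at −4.24, miR-29b-1 and miR-29b-2 are at −0.81 and −0.82, and miR-29c is at 0.32.

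The chromosome 6 and chromosome 1 clusters were compared within each array, with miR-29b-3p left out because both clusters make it. The log2 level of miR-29a-3p (chromosome 6) minus that of miR-29c-3p (chromosome 1) was −2.19, −2.96, −2.33, −3.05 and −1.98 in T-C cell replicates 1 to 5. In control cell replicates 1 to 5 it was 2.15, 2.06, 2.22, 1.71 and 2.57. The sign was opposite in the groups on all 10 arrays, and the means of −2.50 ± 0.48 and 2.14 ± 0.31 (SD, n = 5 each) had a difference of −4.64. The exact permutation test, two-sided, gave p = 0.00794, the lowest value this design can reach, and 0.0238 when adjusted over 3 comparisons.

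The passengers of the clusters gave no such difference at this brightness. miR-29a-5p minus miR-29c-5p was −0.34 ± 0.21 in the T-C cell group and −0.25 ± 0.22 in the control cell group, which differ by −0.09 (p = 0.516 in the exact permutation test, adjusted p = 0.774). miR-29b-1-5p minus miR-29b-2-5p was −0.22 ± 0.09 and −0.21 ± 0.05, which differ by −0.01 (p = 0.833 in the exact permutation test, adjusted p = 0.833). Since all 4 passengers lay near background, a change in them was largely not detectable. Mir29b-1, the other hairpin of the chromosome 6 cluster, is thus measured only through miR-29b-3p, to which Mir29b-2 on chromosome 1 also adds.

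**Figure D4:**
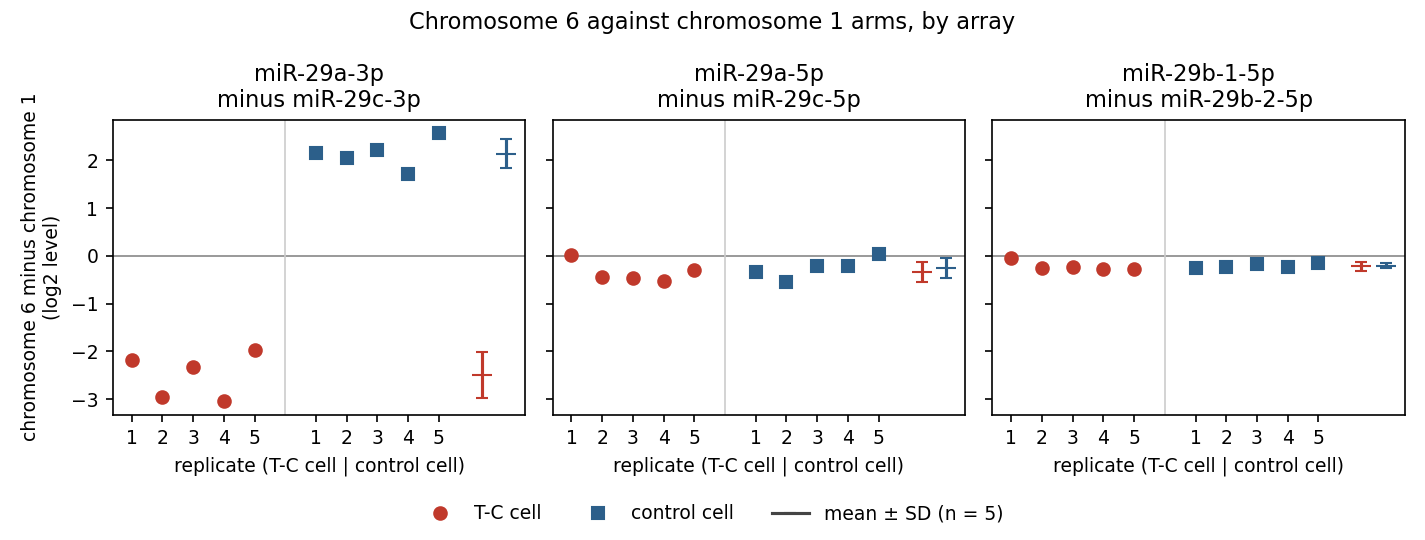
Log2 level of a chromosome 6 arm minus that of a chromosome 1 arm on each array; the bars at the right of each panel are the mean ± SD (n = 5 each). The guide contrast lies between −3.05 and −1.98 in T-C cell and between 1.71 and 2.57 in control cell samples, and the 2 passenger contrasts overlap.

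No tested miRNA came near miR-29a-3p in the size of its decrease. Likeness was measured as the mean absolute difference over the 10 arrays after each miRNA was set to its mean in control cell samples. Changes were not scaled, so a miRNA that moved in parallel by a smaller amount counts as unlike. Whether any miRNA varied together with miR-29a-3p was not tested. The 5 most alike were miR-744-3p (1.31), miR-7679-3p (1.31), miR-7025-3p (1.40), miR-547-5p (1.43) and miR-7658-3p (1.55), in log2 units. They were lower in T-C cell samples by 1.95 to 2.43 log2 units (limma adjusted p between 0.0400 and 0.0419), with overlapping groups for all 5. These were also the next 5 after miR-29a-3p by size of decrease. Without control cell replicate 2, or without replicate 3, the fit called 1 miRNA in all, which was miR-29a-3p. Within the family, miR-29b-3p ranked 30 by this measure (1.86) and miR-29c-3p ranked 363 (2.42). miR-3102-3p, the one other array miRNA that shares bases 2 to 7 with the guides, was detected on 2 of 10 arrays and was not tested, with raw brightness of 117 to 237 over the 10 arrays.

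Most miRNAs called lower hold a short sequence that the guides also hold, which had been noticed earlier in these data. Of the 124 tested miRNAs that hold ACC, 28 (22.6%) were called lower, and of the 352 without it, 2 (0.568%) were called lower. These counts rest on the 30 lower calls of the fit with all arrays. Leaving out T-C cell replicate 1 gave 9 lower calls in all, and leaving out replicate 4 gave 1. Leaving out control cell replicate 1, 2 or 3 gave 1 each time, and leaving out replicate 5 gave 2. The seed of all 3 guides holds ACC. The median difference was −0.13 among tested miRNAs with ACC and 0.05 among those without. miR-29a-3p was at −4.45 and miR-29c-3p at 0.19. The part of this sequence in the results was not tested.

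Other miRNAs linked to matrix and fibrosis were read from a list of 36, chosen with earlier results of these data known. Of the 33 tested, 1 was called higher, 0 were called lower and 32 did not pass, and the list's median difference of 0.06 was close to the 0.02 of all tested miRNAs. The one called higher was miR-150-5p, a lymphocyte miRNA, at 0.86 (SE 0.23, limma adjusted p = 0.0433), a call that ended without control cell replicate 2 or 3. miR-133a-3p, a muscle miRNA, differed by −0.67 (limma adjusted p = 0.119) and miR-200a-3p, an epithelial miRNA, by −0.37 (limma adjusted p = 0.311). miR-21a-5p, a fibrosis-linked miRNA, differed by −0.26 (limma adjusted p = 0.362). Differences on the list ran from −0.67 to 0.86, and none came near that of miR-29a-3p.

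Over the series, 189 to 1314 miRNAs were detected per array and detection limits ran from 64.0 to 474, which with 5 arrays a group limits the precision. Correlations between arrays ran from 0.838 to 0.983. miR-122-5p, the defining hepatocyte miRNA, was detected on 1 of 10 arrays, at 57.8 to 193 units, although the labels name liver. The summed brightness of the cell type lists overlapped between the groups: the mesenchymal or fibroblast list (5 of 5 tested, 0 called) ran from 30246 to 56376 in the T-C cell group and from 37469 to 44972 in the control cell group. The hepatocyte list (3 of 5 tested, 0 called) ran from 19956 to 34181 and from 21711 to 33977. Its sum came mostly from miR-192-5p (7608 to 18241 units over the 10 arrays) and miR-194-5p (6697 to 20165). Both arms of miR-122 were detected on only 1 of 10 arrays. The epithelial list (5 of 5 tested, 0 called) ran from 20034 to 33955 and from 19430 to 33905. The leukocyte list (4 tested, 1 called) ran from 2150 to 5137 and from 1777 to 2302, and its called member was miR-150-5p. The endothelial (1 tested), erythroid (1 tested) and muscle (3 tested) lists had 0 calls. The part of these lists in the miR-29a-3p result was not tested. The file headers number the arrays, and the control cell numbers are higher than the number of T-C cell replicate 1 and lower than the remaining 4 in the T-C cell group. No source used here says what these numbers count. Whether array order had a part in the results was not tested.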

How the data were processed

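Per the labels, a microarray service (LC Sciences) tailed 1 µg of total RNA with poly(A), joined a tag oligonucleotide to the tail and dyed it with Cy3. The authors deposited 1 file per array with the median spot intensity, a linear brightness without scaling between arrays or background subtraction, per the file headers. No source used here names the scanner or image software. Groups came from the sample titles.

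The scale was log2(intensity + 50), averaged over the 2 spots of a miRNA and normalized between arrays by cyclic loess (limma 3.58.1, R 4.3.3). miRNAs detected on at least 5 of 10 arrays were tested with limma (trend, two-sided, Benjamini-Hochberg over 476 miRNAs or 338 hairpin pairs, threshold 0.05 on the adjusted p). Single values had an exact permutation test, two-sided, with all 252 assignments of 10 arrays to groups. The procedure was tested on simulated data. Sequences and positions came from RefSeq (GRCm38.p6) and GENCODE M21, read with Python 3.11.15. Alternatives covered scaling, background, filters, spots, array weights, a replicate block and leaving out each array. The members and lists were chosen with earlier results of these data known. Named besides the members were the 5 miRNAs most like miR-29a-3p, those sharing its seed, and from the matrix list the 4 smallest p with miR-21a-5p.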

Additional observations from a re-analysis of the deposited data

Results flagged for a closer look

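In the contrast of miR-29b-1-5p with miR-29b-2-5p, T-C cell replicate 1 stood at −0.052 log2 units, apart from the other 4 T-C cell arrays, which lay between −0.28 and −0.24. Its gap to the nearest of them was 0.825 of the group's whole range, above the critical 0.71 for 5 samples. It was 1 of 28 groups of 5 values looked at, and chance sets apart about 1 group in 20. Both miRNAs were below the detection limit on that array, at 66.0 and 64.8 raw units against a limit of 133.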

How the results depend on the processing

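The difference of miR-29a-3p was negative and called in each of the 22 alternative limma fits that tested it (it was not detected on all 10 arrays), between −6.96 and −3.84, and without single arrays between −4.53 and −4.25. The difference of miR-29b-3p ran from −2.08 to −0.59 and passed in no limma fit. Its exact permutation p as a single value (−0.88) was 0.0317, without the adjustment over miRNAs that the limma fits have. The difference of miR-29c-3p ran from −0.04 (without T-C cell replicate 4) to 0.48. The count of called miRNAs, 37, was 14 with median centring (1 higher and 13 lower, against 7 and 30), 3 with blanks subtracted to a floor of 1 (2 higher and 1 lower), 1 with all array miRNAs tested, 18 with those detected on all 10 arrays (9 higher and 9 lower), and 1 to 44 without single arrays. The count of called hairpin pairs, 31, was in the same order 7, 0, 2, 17 and 2 to 42, and it was 7 with no normalization and 11 with both arms detected. Leaving out T-C cell replicate 1 or 4 or control cell replicate 1, 2, 3 or 5 gave, in this order, 12, 2, 3, 1, 1 and 3 called miRNAs and 9, 2, 3, 2, 3 and 2 called pairs. With blanks subtracted, the Mir29a arm difference was −4.43 and not called (limma adjusted p = 0.111). That of Mir29b-2 was called with array weights (−0.64) and with local background subtracted (−1.25), the latter chosen after seeing the data.

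With the replicate number as a replicate block, 22 miRNAs and 9 hairpin pairs were called, and miR-29a-3p minus miR-29c-3p stayed at −4.64 but could not pass (exact adjusted p = 0.1875), since sign flips of 5 pairs allow no small enough p. Deviations of same-numbered arrays correlated at over 0.1 in 1 of 5 pairs, and 1 of 5 T-C cell arrays correlated best with its own number. These few correlations cannot show whether the numbers pair the samples. The passengers lay near background, which limits what their values can show.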
